A study of Mus musculus with 4 samples.

Results

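The genes described here are 8 transcription factors that establish or maintain hepatocyte identity, namely *Hnf4a*, *Foxa1*, *Foxa2*, *Foxa3*, *Onecut1*, *Cebpa*, *Cebpb* and *Prox1*. They were chosen by name, and each symbol was found once among the 35739 genes of the salmon table of liver transcript abundance. Their RNA was compared in liver between WT (labelled replicates 2 and 3) and *Usp21* KO (labelled replicates 1 and 3), which gives 2 libraries per genotype and 4 in all. *Usp21* encodes a protease that removes ubiquitin from other proteins. Per the study's methods, the KO allele arose by Cre excision of exons 3 and 4 of a floxed gene, the mice were littermates of 10 to 11 weeks on a normal diet and a 12 h light cycle, and the KO alleles came from mice of a mixed strain background bred to B6. The allele was constitutive, so the deletion was carried by every cell type and from development onward, and not by hepatocytes alone. The sources used here give neither the sex of the mice nor the time of day at which livers were taken, and the labels number the mice without naming a litter or batch, so p-values measure only the spread between these libraries, which may be technical in part.

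Hepatocyte identity rests on a small network of factors that bind each other's genes. FOXA proteins open closed chromatin, HNF4A (a nuclear receptor) and C/EBP proteins (basic leucine zipper factors) then drive the genes of plasma protein, lipid and glucose metabolism, ONECUT1 (a cut homeodomain protein, also called HNF6) acts early in liver and bile duct formation, and PROX1 (a homeodomain protein) restrains HNF4A and marks both hepatocytes and lymphatic endothelium. In this tissue the network is known for keeping adult liver functions on and biliary or fetal programs off.

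Start regions are shown for the 4 genes whose KO libraries both lay above both WT libraries, a position that 34.4% of all tested genes also had, to show the starts of the genes described most closely below. The sequences are from RefSeq on GRCm38.p6, where 8 of 8 genes had an entry with 12 start windows of 250 bases before and 50 bases after a start. Only bases before the start that lie in no annotated exon are printed, 5′ to 3′ on the strand of the gene, and capitals mark the matches to 4 short motifs searched on both strands. *Hnf4a* has a pair of starts. The upstream one is at chr2:163506607-163506807 (plus strand) and the downstream one, known as the promoter used in adult hepatocytes, at chr2:163546943-163547154 (plus strand). *Foxa1* is shown at chr12:57546122-57546361 (minus strand), *Onecut1* at chr9:74861671-74861920 (plus strand) and the second of the *Prox1* starts at chr1:190169516-190169765 (minus strand).
Hnf4a upstream start: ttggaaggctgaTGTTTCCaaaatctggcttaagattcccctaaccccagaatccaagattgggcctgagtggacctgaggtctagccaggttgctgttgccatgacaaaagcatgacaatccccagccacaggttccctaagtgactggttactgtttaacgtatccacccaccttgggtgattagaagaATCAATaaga
Hnf4a downstream start: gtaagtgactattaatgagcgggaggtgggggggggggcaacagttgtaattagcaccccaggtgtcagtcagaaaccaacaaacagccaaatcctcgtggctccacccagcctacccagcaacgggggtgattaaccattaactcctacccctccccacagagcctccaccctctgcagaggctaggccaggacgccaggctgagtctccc
Foxa1: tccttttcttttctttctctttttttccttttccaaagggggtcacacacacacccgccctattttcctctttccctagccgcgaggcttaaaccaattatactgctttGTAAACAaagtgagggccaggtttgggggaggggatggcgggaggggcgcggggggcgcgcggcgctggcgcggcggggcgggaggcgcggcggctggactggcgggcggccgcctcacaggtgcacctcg
Onecut1: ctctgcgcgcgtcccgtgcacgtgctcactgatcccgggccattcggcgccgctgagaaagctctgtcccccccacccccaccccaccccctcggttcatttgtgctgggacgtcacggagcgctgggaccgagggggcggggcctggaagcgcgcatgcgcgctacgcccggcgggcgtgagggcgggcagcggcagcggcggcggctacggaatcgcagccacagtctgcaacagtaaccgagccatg
Prox1 second start: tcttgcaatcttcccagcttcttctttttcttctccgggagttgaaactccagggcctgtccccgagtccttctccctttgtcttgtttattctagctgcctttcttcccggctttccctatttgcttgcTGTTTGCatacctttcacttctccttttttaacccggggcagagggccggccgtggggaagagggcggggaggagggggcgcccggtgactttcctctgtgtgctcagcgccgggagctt

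Counted back from the RefSeq start, where -1 is the base before it, the upstream *Hnf4a* window held the ONECUT core ATTGAT (read on the other strand) from -59 to -54 and the FOXA letters TGTTTNC from -238 to -232. The downstream *Hnf4a* window held none of the 4 motifs. *Foxa1* held the FOXA letters from -141 to -135 and the second *Prox1* window from -120 to -114, and the *Onecut1* window held none. Of the windows not printed, *Foxa2* held ATTGAT from -213 to -208 at its first start and none at the other starts, and those of *Foxa3*, *Cebpa* and *Cebpb* and the first of *Prox1* held none. Among 32851 RefSeq windows of 300 bases, ATTGAT was found in 7.54% and TGTTTNC in 20.5%. The C/EBP letters TTGCNNAA (10.8% of windows) and the HNF4 letters CAAAGTCCA (0.475%) were found in no window of the 8 genes. None of these motifs contains another. A match is only a description of letters, and salmon values were summed per gene, so the starts of *Hnf4a* and *Prox1* were not told apart in what follows.

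Transcript abundance was given as TPM, a share of all transcripts in the library that is corrected for transcript length, so levels of different genes can be set side by side. By mean TPM over the 4 libraries the order was *Hnf4a* (136 TPM), *Cebpa* (122 TPM), *Cebpb* (91.7 TPM), *Foxa3* (30.7 TPM), *Foxa2* (15.0 TPM), *Prox1* (5.15 TPM), *Onecut1* (4.53 TPM) and *Foxa1* (4.03 TPM). The genes fell into an upper tier of *Hnf4a*, *Cebpa* and *Cebpb*, a middle tier of *Foxa3* and *Foxa2*, and a lower tier of the other 3, and in each library every gene of a tier exceeded those of the next. Across libraries, the ranges of the upper and middle tiers did not overlap, while *Foxa2* in KO replicate 3 (7.93 TPM) was below *Onecut1* in KO replicate 1 (10.5 TPM). Within a tier, the ranges of neighbouring genes overlapped. *Foxa3* nevertheless exceeded *Foxa2* in 4 of 4 libraries, whereas *Cebpb* was the highest of the 8 genes in WT replicate 3 and rank 3 in the other 3 libraries.

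**Figure D1:**
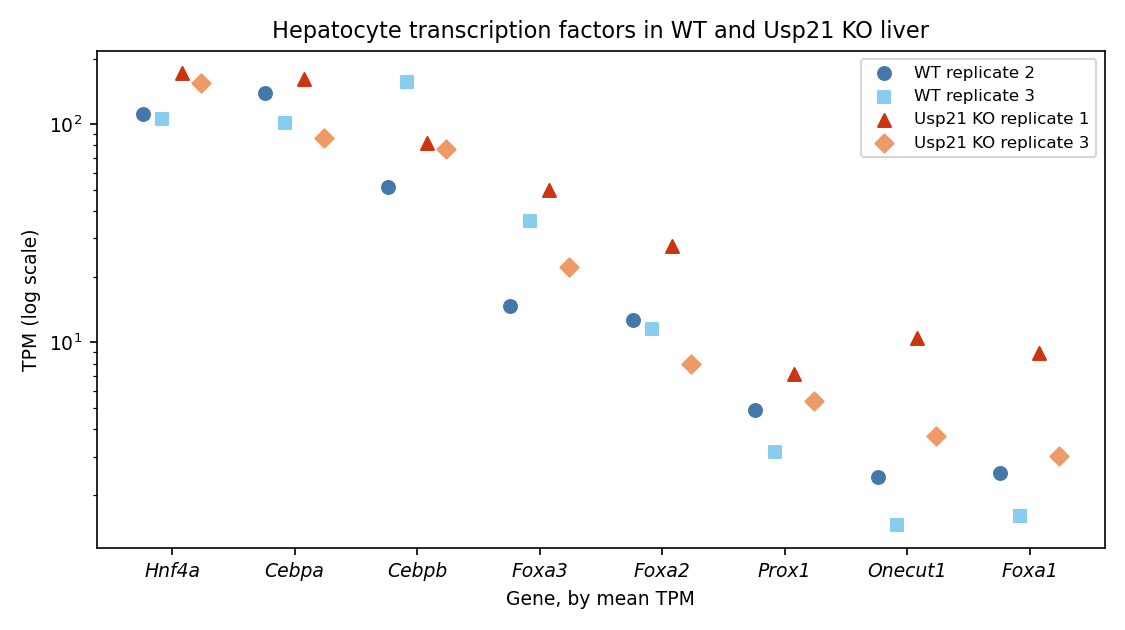
TPM (log axis) of the 8 transcription factors in each of the 4 libraries, 1 point per library, with genes in order of mean TPM. *Hnf4a* separates the genotypes with little spread within them, *Cebpb* is highest in WT replicate 3 (156 TPM), and *Foxa1*, *Foxa2*, *Foxa3* and *Onecut1* are highest in KO replicate 1.

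Genotypes were compared with limma on log2(TPM + 1) in the 9581 genes whose mean over the libraries reached 1 TPM, and the two-sided p-values were adjusted by Benjamini-Hochberg across that whole set. A log2 fold change is the KO mean minus the WT mean on this scale, which understates the change of genes with low TPM. All 8 factors passed this filter, and each did so in WT alone, where the lowest group mean was 1.93 TPM (*Onecut1*). None of the 8 reached an adjusted p under 0.05 in limma (the values ran from 0.464 to 0.995), compared with 0.0835% of all tested genes that did. At an unadjusted p under 0.05, 2 of the 8 passed, *Hnf4a* and *Onecut1*, both higher in KO, beside 8.45% of all tested genes in that direction. An exact permutation test of a single gene cannot go below 0.33 with so few libraries. On this scale 2 of the 8 differed by at least 2-fold, *Onecut1* and *Foxa1*, beside 3.68% of all tested genes and 2.59% in the direction of KO.

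Both KO libraries lay above both WT libraries for 4 of the 8 factors (*Hnf4a*, *Onecut1*, *Foxa1* and *Prox1*) and below for 0. Among all tested genes, 34.4% lay above in this way and 10.9% below, so that a position above is common in these libraries, and with 8 genes the count is not far from that background. The median log2 fold change of the 8 was 0.53 beside 0.15 over all tested genes. Of the 8, 6 had a log2 fold change above 0, compared with 66.7% of all tested genes. When the libraries were scaled to an equal upper quartile, the median over all tested genes fell to 0.04 and the share of genes with both KO libraries above to 24.5%, while the same 4 factors had both KO libraries above. In whole liver, fewer cells of a type and less RNA per cell cannot be told apart.

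**Figure D2:**
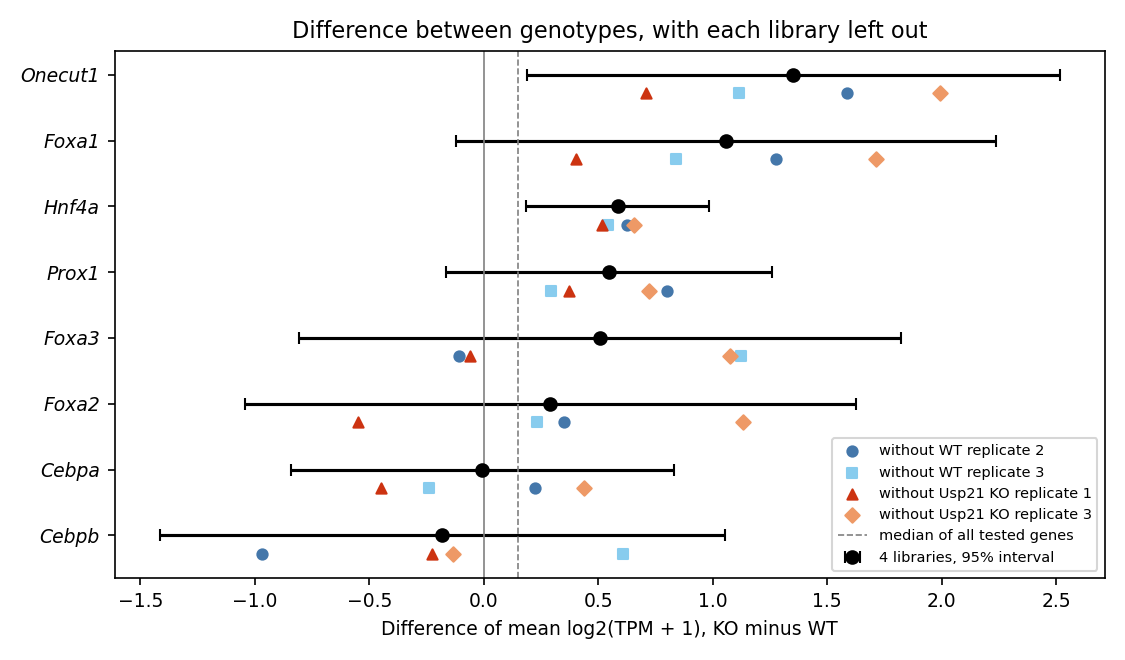
Difference of mean log2(TPM + 1) between *Usp21* KO and WT for each factor (black point, with its 95% interval from limma) and the same difference with each library left out (coloured points below). The dashed line is the median of all tested genes (0.15). The *Hnf4a* points stay together between 0.51 and 0.66, whereas those of *Foxa2*, *Foxa3*, *Cebpa* and *Cebpb* fall on both sides of 0.

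*Hnf4a* (ENSMUSG00000017950, plus strand of chromosome 2, from 163506808 to 163572910 in GRCm38) is the nuclear receptor at the centre of the network. It had 112 TPM and 105 TPM in WT replicates 2 and 3, and 171 TPM and 155 TPM in KO replicates 1 and 3. Both KO livers were above both WT livers, and the gap between the genotypes was wider than the gap within either. The KO mean was 1.51 times the WT mean, with a log2 fold change of 0.59 (SE 0.16, 95% interval 0.18 to 0.99, limma unadjusted p = 0.0123, adjusted p = 0.464). Of the 8 factors it had the smallest standard error. With each library left out it stayed between 0.51 and 0.66, and the unadjusted limma p rose to 0.0682 when WT replicate 3 was left out and to at most 0.0474 when any of the others was.

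*Onecut1* (chromosome 9, 74861921 to 74891781, plus strand) is a homeodomain factor that acts upstream of *Hnf4a* in liver development. WT livers had 2.41 TPM and 1.45 TPM, while KO replicate 1 had 10.5 TPM and KO replicate 3 had 3.73 TPM. Both KO libraries were higher than both WT libraries, but KO replicate 1 alone was 2.82 times KO replicate 3. The ratio of group means was 3.69 and the log2 fold change 1.35 (SE 0.47, 95% interval 0.19 to 2.52, limma unadjusted p = 0.0299, adjusted p = 0.464). Without KO replicate 1 the log2 fold change was 0.71, and without KO replicate 3 it was 1.99. The unadjusted limma p of *Onecut1* was 0.0624 without WT replicate 2, 0.146 without WT replicate 3, 0.108 without KO replicate 1 and 0.187 without moderation of the variances. The related gene *Onecut2* had 2.14 TPM and 3.25 TPM in WT and 5.48 TPM and 3.22 TPM in KO, with overlapping groups, and *Onecut3* was listed at 0 in all 4 libraries.

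*Foxa1* (chromosome 12, 57540628 to 57546916, minus strand) encodes a pioneer factor of the forkhead family and had the lowest mean TPM of the 8. It had 2.53 TPM and 1.61 TPM in WT, 8.97 TPM in KO replicate 1 and 3.01 TPM in KO replicate 3. KO replicate 1 stood apart here as it did for *Onecut1*, while KO replicate 3 was only just above WT replicate 2. The log2 fold change was 1.06 (SE 0.47, 95% interval -0.12 to 2.24, limma unadjusted p = 0.0700, adjusted p = 0.489), and it was 0.40 without KO replicate 1 and 1.72 without KO replicate 3.

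*Foxa2* (chromosome 2, 148042877 to 148046969, minus strand), a forkhead factor tied to fasting lipid metabolism and bile acid handling, did not separate the genotypes. Its levels were 12.6 TPM and 11.6 TPM in WT, 27.7 TPM in KO replicate 1 and 7.93 TPM in KO replicate 3, so that the KO livers held both the highest and the lowest value. The log2 fold change was 0.29 (SE 0.54, 95% interval -1.04 to 1.63, limma adjusted p = 0.851), and it was -0.55 without KO replicate 1 and 1.13 without KO replicate 3.

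*Foxa3* (chromosome 7, 19013284 to 19023538, minus strand) was the most abundant forkhead factor of the 3. The WT livers differed from each other, with 14.7 TPM in replicate 2 and 35.99 TPM in replicate 3, as did the KO livers, with 49.9 TPM in replicate 1 and 22.1 TPM in replicate 3. The groups overlapped, and the log2 fold change was 0.51 (SE 0.53, 95% interval -0.80 to 1.82, limma adjusted p = 0.725). Leaving out WT replicate 2 gave -0.11, and leaving out KO replicate 1 gave -0.06.

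Summed over *Foxa1*, *Foxa2* and *Foxa3*, FOXA transcripts came to 29.9 TPM and 49.1 TPM in WT and to 86.6 TPM and 33.1 TPM in KO. The sum was highest in KO replicate 1, and KO replicate 3 lay between the WT livers. *Foxa3* made up 49.3% and 73.2% of that sum in WT and 57.6% and 66.9% in KO, and *Foxa1* never more than 10.4%.

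*Cebpa* (chromosome 7, 35119293 to 35121928, plus strand) drives gluconeogenic and urea cycle genes and holds hepatocytes out of the cell cycle. It had 140 TPM and 101 TPM in WT, 161 TPM in KO replicate 1 and 86.7 TPM in KO replicate 3. Again the KO livers held the highest and the lowest value, and the log2 fold change was -0.01 (SE 0.34, 95% interval -0.84 to 0.83, limma adjusted p = 0.995). The interval reaches far enough in both directions that a sizeable difference could not be seen with these libraries. *Cebpa* moved to 0.44 without KO replicate 3 and to 0.23 without WT replicate 2.

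*Cebpb* (chromosome 2, 167688915 to 167690418, plus strand) is induced in the acute phase response and in liver regeneration. Its levels were 51.7 TPM in WT replicate 2, 156 TPM in WT replicate 3, 81.9 TPM in KO replicate 1 and 76.8 TPM in KO replicate 3. Here the spread lay in WT, where replicate 3 was 3.02 times replicate 2, and the KO livers were close to each other and between the WT values. The log2 fold change was -0.18 (SE 0.50, 95% interval -1.42 to 1.05, limma adjusted p = 0.902). It was 0.61 without WT replicate 3 (limma unadjusted p = 0.0484) and -0.97 without WT replicate 2 (limma unadjusted p = 0.0100), so the direction rested on which WT liver was kept. *Cebpb* was the only one of the 8 factors that was not highest in KO replicate 1. The ratio of *Cebpa* to *Cebpb* was 2.70 and 0.645 in WT and 1.97 and 1.13 in KO.

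Some acute phase and neutrophil genes shared the high value in WT replicate 3, and they were singled out after their values had been seen. Other acute phase genes did not share it, with *Crp* at 254 TPM and 238 TPM in WT and *Fgb* highest in KO replicate 1 (2106 TPM). *Saa1*, which encodes an acute phase protein, had 47.8 TPM and 1089 TPM in WT and 162 TPM and 135 TPM in KO. *Saa2* had 24.7 TPM and 492 TPM in WT and 59.6 TPM and 26.4 TPM in KO. *S100a8*, a neutrophil gene, had 2.26 TPM and 29.1 TPM in WT and 1.12 TPM and 0.738 TPM in KO, and *S100a9* was likewise highest in WT replicate 3 (12.7 TPM). Over the 7 leukocyte markers the sum was 45.3 TPM in WT replicate 3 and between 4.35 TPM and 7.54 TPM in the other 3 libraries, and *S100a8* and *S100a9* made up most of it. *Ptprc*, a marker of all leukocytes, was lowest in WT replicate 3 (0.307 TPM), so the markers did not move as a class. WT replicate 3 was the highest of the 4 libraries for 15.2% of all tested genes. The part of these genes or cells in the *Cebpb* value was not tested.

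**Figure D3:**
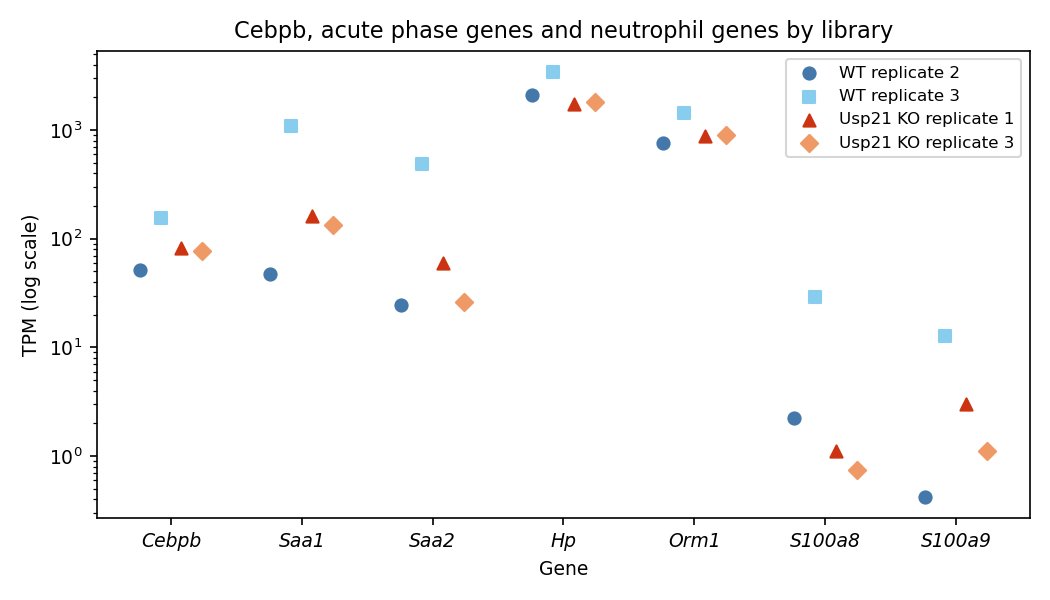
TPM (log axis) of *Cebpb*, of the acute phase genes *Saa1*, *Saa2*, *Hp* and *Orm1*, and of the neutrophil genes *S100a8* and *S100a9*, 1 point per library. WT replicate 3 is the highest library for each of these 7 genes, from 12.7 TPM for *S100a9* to 3416 TPM for *Hp*, and the genes were chosen after their values had been seen.

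*Prox1* (chromosome 1, 190118035 to 190170714, minus strand) encodes a corepressor of HNF4A. It had 4.90 TPM and 3.15 TPM in WT and 7.16 TPM and 5.40 TPM in KO, with both KO livers above both WT livers. The log2 fold change was 0.55 (SE 0.29, 95% interval -0.16 to 1.26, limma unadjusted p = 0.107, adjusted p = 0.517), and it stayed between 0.29 and 0.80 with each library left out. *Prox1* is on the same chromosome as the targeted gene, 18.83 Mb away, and a segment of the other parental strain around the KO allele and the genotype cannot be told apart there. It is also a gene of lymphatic endothelium, and of 5 genes listed as markers of that cell type 3 were tested (*Lyve1*, *Reln* and *Flt4*). Whether the RNA of these 3 comes from that cell type in whole liver was not tested. Each of the 3 was higher in both KO livers than in either WT liver, a position that 34.4% of all tested genes also had. The levels of the 5 markers summed to 9.35 TPM and 5.96 TPM in WT and to 16.3 TPM and 11 TPM in KO, the same order of libraries as for *Prox1*. Most of these sums was *Reln* (7.02 TPM and 4.52 TPM in WT, 10.3 TPM and 7.74 TPM in KO), and *Flt4* was highest in KO replicate 3. *Pdpn*, a defining marker, was at 0 in 3 libraries and at 0.127 TPM in KO replicate 3. *Ccl21a*, like *Pdpn* too low to be tested, had 0.332 TPM and 0 TPM in WT and 1.61 TPM and 0.298 TPM in KO. The part of lymphatic cells in the *Prox1* value was not tested.

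KO replicate 1 was the highest library for 7 of the 8 factors, beside 45.9% of all tested genes. On log2(TPM + 1), KO replicate 1 exceeded KO replicate 3 by at least 2-fold for 4 of the 8 (*Foxa1*, *Foxa2*, *Foxa3* and *Onecut1*), beside 4.38% of all tested genes. The KO livers thus differed in the 3 *Foxa* genes and *Onecut1*, whereas they were close in *Hnf4a* (ratio 1.10) and *Cebpb* (ratio 1.07). KO replicate 3 alone lay above both WT livers for the same 4 factors as the pair of KO livers did, beside 44.3% of all tested genes, and KO replicate 1 for 7 of the 8, beside 57.6%. Beside this, KO replicate 1 had the most genes above 0 TPM (13620, against 12876 to 13071 in the other 3 libraries) and the lowest share of TPM in its 10 most abundant genes (25.7%, against at most 30.7%). The 9 Kupffer cell markers summed to 114 TPM in KO replicate 1, to 290 TPM in KO replicate 3 and to 212 TPM and 249 TPM in WT. *Cd5l*, for example, had 11.4 TPM in KO replicate 1 and 45.5 TPM in KO replicate 3. The part of cell makeup or library quality in the high values of KO replicate 1 was not tested.

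**Figure D4:**
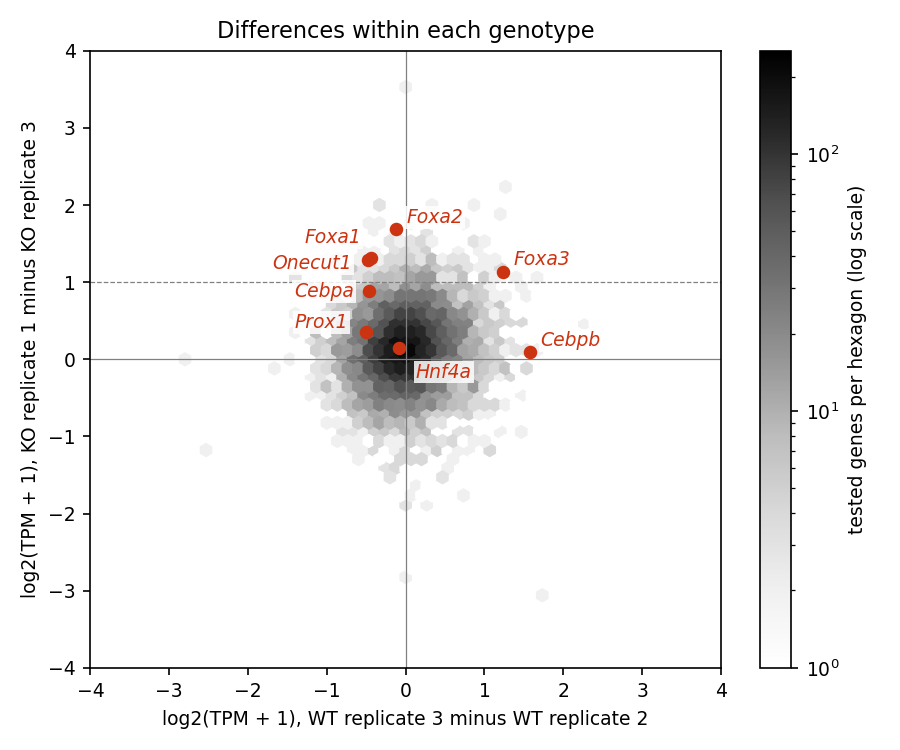
Difference between the WT libraries (horizontal axis, WT replicate 3 minus WT replicate 2) and between the KO libraries (vertical axis, KO replicate 1 minus KO replicate 3) in log2(TPM + 1). Grey hexagons count the tested genes that fall within the axes and red points are the 8 factors. *Foxa1*, *Foxa2*, *Foxa3* and *Onecut1* lie above the dashed line at 2-fold in KO, and *Foxa3* and *Cebpb* lie to the right, higher in WT replicate 3.

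For each of the 4 factors with both KO livers above both WT livers, the genes with the closest profile were found as the smallest root mean square difference in centred log2(TPM + 1) over the 4 libraries. With so few libraries close profiles are common, and these are descriptions. Nearest to *Hnf4a* were *Impa1*, an inositol monophosphatase (difference 0.00789), and *Commd7* (0.0126). Nearest to *Foxa1* were *Golgb1*, a Golgi matrix protein (0.0770), and *Elovl5*, a fatty acid elongase (0.0884). For *Onecut1* they were *Clk1*, a splicing kinase (0.138), and *Foxa1* itself (0.148), and *Onecut1* ranked 7 in turn among the genes nearest to *Foxa1*. *Prox1* was closest to *Reln* (0.0206), which also stands in the lymphatic endothelial list above, and to *Slc25a34*, a mitochondrial carrier (0.0271). Which cells the *Reln* RNA comes from was not tested. *Hnf4a* and *Foxa1* were not close, at 0.494.

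Other liver transcription factors were taken from a list of 32 genes, of which 29 were tested. Both KO libraries lay above both WT libraries for 10 and below for 3 of them, with a median log2 fold change of 0.26. None passed the adjusted threshold in limma, and 3 had an unadjusted p under 0.05 (*Klf15*, *Hhex* and *Gata6*, each higher in KO). Over all tested genes 34.4% lay above, 10.9% lay below and 10.5% had such a p, so the counts of this list were near the background. *Klf15*, a factor of amino acid catabolism, had 56.4 TPM and 56.7 TPM in WT and 81.2 TPM and 95.5 TPM in KO. *Hhex*, an early hepatic homeobox gene, had 52.8 TPM and 41.2 TPM in WT and 93.4 TPM and 61.3 TPM in KO. The highest log2 fold changes among those without overlap were those of *Tbx3* (0.75), a T-box factor, and *Gata6* (0.70), and the lowest those of *Nr1i3* (-0.40), the xenobiotic receptor CAR, and *Esrra* (-0.36). Some nuclear receptors of this list lay apart from WT without overlap, on both sides. *Rora* (0.67), *Thrb* (0.53), *Nr5a2* (0.26) and *Ppara* (0.15) lay above like *Hnf4a*, and *Nr1i3*, *Esrra* and *Nr1h4* (-0.30) below. *Ppara* was no higher than the median of all tested genes (0.15). The groups overlapped for the other tested receptors, *Nr0b2* (0.37), *Rxra* (0.04), *Nr2f2* (0.02), *Nr1i2* (-0.02), *Nr1h3* (-0.11) and *Nr2f6* (-0.11).

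Among 7 genes of the C/EBP family and its partners, 3 were higher in KO without overlap and 0 lower, with a median of 0.19. *Ddit3*, a stress-induced partner that blocks C/EBP binding, had 2.51 TPM and 5.22 TPM in WT and 8.95 TPM and 5.55 TPM in KO (log2 fold change 0.79), and *Cebpg* followed with 0.55. Of 17 other forkhead genes 11 were tested, 6 of them with both KO libraries above and 0 below (median 0.40). *Foxp1* had 1.13 TPM and 1.64 TPM in WT and 8.39 TPM and 2.54 TPM in KO (log2 fold change 1.28), a profile in which KO replicate 1 again stood apart. *Foxo1*, which drives gluconeogenic genes in fasting, had 3.55 TPM and 4.95 TPM in WT and 6.47 TPM and 7.74 TPM in KO (0.63). Over the regulators of these 3 lists together, 19 of 47 tested genes (40.4%) had both KO libraries above and 3 below, beside 34.4% and 10.9% of all tested genes.

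Coregulators that bind HNF4A, FOXA, C/EBP or PROX1 made up a list of 17 genes. Of the 16 tested, 11 were higher in KO without overlap and 0 lower, with a median of 0.46, and 1 had an unadjusted p under 0.05 in limma (*Ncor1*). Over all tested genes these shares were 34.4% higher, 10.9% lower and 10.5% with an unadjusted p under 0.05. *Ppargc1a*, the coactivator PGC-1α, had 0.681 TPM and 0.482 TPM in WT and 2.43 TPM and 1.19 TPM in KO (log2 fold change 0.80). By RT-qPCR normalized to *Gapdh*, the study also found *Ppargc1a* RNA higher in KO liver, without stating which mice were used. The study singled out *Ppargc1a* in these same libraries, so its direction here is not independent evidence. *Ncor1*, a corepressor of nuclear receptors, had 13.1 TPM and 21.7 TPM in WT and 28.4 TPM and 29.8 TPM in KO (0.75, limma adjusted p = 0.464).

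Genes that HNF4A is known to bind and regulate lay on both sides of their WT levels. Of 20 HNF4A target genes, 5 were higher in KO without overlap and 4 lower, with a median log2 fold change of -0.03, and 4 were higher and 1 lower at an unadjusted p under 0.05 in limma. Of all tested genes, 34.4% lay above and 10.9% below, and 10.5% had such a p. *Abcc6*, a hepatic transporter, had 12.5 TPM and 12.4 TPM in WT and 31.3 TPM and 18.8 TPM in KO (log2 fold change 0.91). *Tat*, tyrosine aminotransferase, had 278 TPM and 458 TPM in WT and 543 TPM and 705 TPM in KO (0.79). On the other side were *Apom*, an apolipoprotein of HDL, with 330 TPM and 283 TPM in WT and 171 TPM and 213 TPM in KO (-0.68), and *Apoc3* (-0.28).

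Among 11 FOXA target genes, 10 were tested, with 5 above, 1 below and a median of 0.35, beside 34.4% above and 10.9% below over all tested genes. The highest among those without overlap were *G6pc*, the last enzyme of gluconeogenesis, and *Igfbp1*, a secreted IGF binding protein of the fasted liver. *G6pc* had 22.4 TPM and 31.6 TPM in WT and 56.4 TPM and 173 TPM in KO (log2 fold change 1.85, SE 0.52, limma unadjusted p = 0.0135, adjusted p = 0.464). *Igfbp1* had 6.28 TPM and 18.4 TPM in WT and 21.5 TPM and 42.3 TPM in KO (1.39). In both genes KO replicate 3 was the highest library, unlike the *Foxa* genes themselves, which were highest in KO replicate 1. *Alb* was the 1 gene lower in KO without overlap (-0.35).

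Of 15 C/EBP target genes, 4 had both KO libraries above and 3 below, with a median of -0.10, beside the same 34.4% and 10.9%. *G6pc* and *Tat* stand in this list as well. The lowest among those without overlap were *Hp*, haptoglobin, with 2109 TPM and 3416 TPM in WT and 1724 TPM and 1798 TPM in KO (log2 fold change -0.61), and *Adh1*, alcohol dehydrogenase (-0.60, limma unadjusted p = 0.0486, adjusted p = 0.473).

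**Figure D5:**
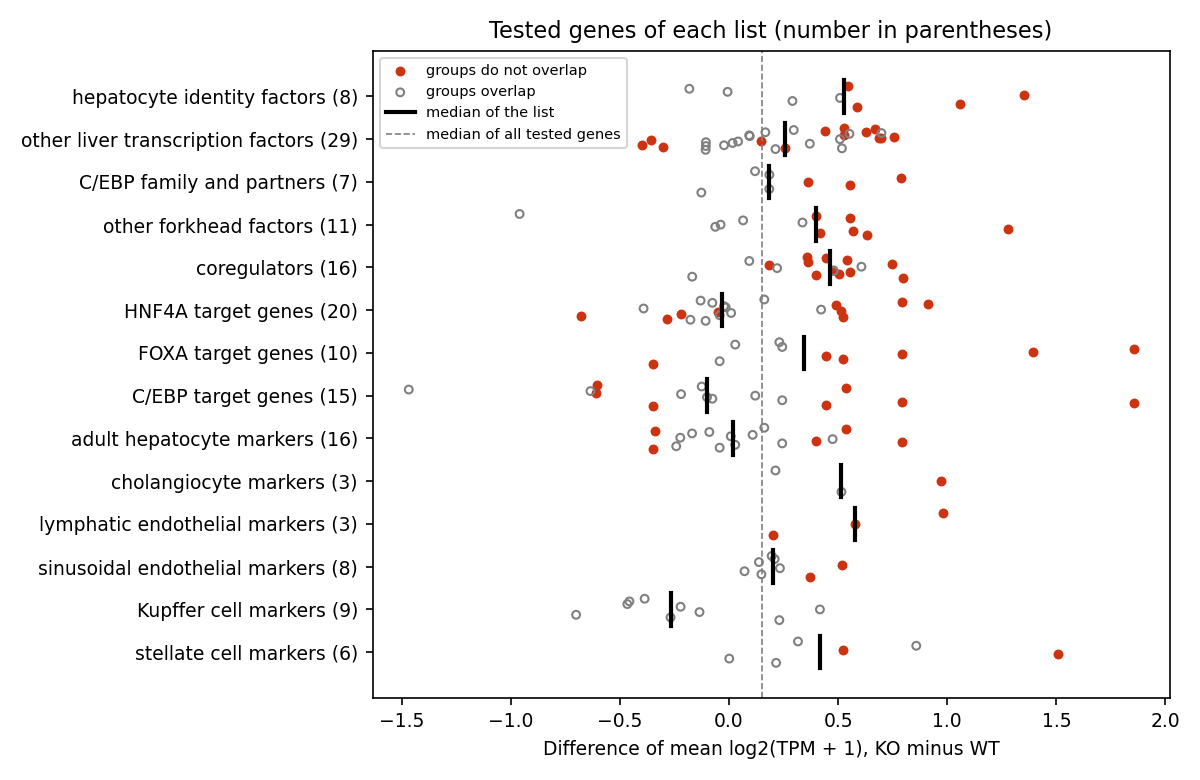
Difference of mean log2(TPM + 1) between *Usp21* KO and WT for the tested genes of each list with at least 3 tested genes, 1 point per gene. Filled points are genes whose KO and WT libraries do not overlap, black bars are list medians and the dashed line is the median of all tested genes (0.15). The 8 factors have a median of 0.53 and the coregulators 0.46, HNF4A targets -0.03 and C/EBP targets -0.10, and each of these 4 lists has genes on both sides of 0.

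The tissue label was checked against cell markers. The 16 adult hepatocyte markers summed to between 67848 TPM and 92164 TPM per library, with 3 above, 2 below and a median log2 fold change of 0.02. Over all tested genes, 34.4% lay above and 10.9% below. *Tat* (0.79) and *Fgb* (0.54) were the highest among those without overlap, and *Alb* (-0.35) and *Cyp2e1* (-0.34) the lowest. Of 9 fetal liver markers, *H19* was not among the genes with TPM, so its level is not known. The other 8 were near absent, with 5 at 0 in all 4 libraries (*Dlk1*, *Igf2*, *Igf2bp3*, *Lin28b* and *Sall4*), 1 tested (*Cd24a*) and *Afp* at no more than 0.428 TPM. Cholangiocytes also express *Onecut1* and *Foxa* genes. Of 9 cholangiocyte markers 3 were tested, and the 9 summed to 17.9 TPM and 18.3 TPM in WT and to 41.9 TPM and 27.6 TPM in KO, of which *Spp1* made up the largest part (13.2 TPM and 12.7 TPM in WT, 33.4 TPM and 20.7 TPM in KO). The defining marker *Krt19* had 0.196 TPM and 0.263 TPM in WT and 0.998 TPM and 1.28 TPM in KO, and *Krt7* at most 0.469 TPM. The part of bile duct cells in the *Onecut1* and *Foxa1* values was not tested.

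Markers of stellate cells summed to 114 TPM and 81.8 TPM in WT and to 169 TPM and 111 TPM in KO over 8 genes, of which 6 were tested, 2 with both KO libraries above (*Rgs5*, 1.51, and *Dcn*, 0.52). The 8 sinusoidal endothelial markers had 2 above and 0 below (*Gpr182*, 0.52, and *Stab1*, 0.37), and the 9 Kupffer cell markers had 0 in either direction. These counts stand beside 34.4% above and 10.9% below over all tested genes. Pancreatic acinar markers, checked because *Foxa2* and *Onecut1* are also pancreatic factors, were at 0 for 5 of 7 genes, and 1 was tested (*Cela1*, -0.27). *Cela1* was not absent, with 42.2 TPM and 30.7 TPM in WT and 28.7 TPM and 30.6 TPM in KO. *Cela2a* had at most 1.22 TPM, in WT replicate 2.

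As for the libraries themselves, the targeted gene *Usp21* had 4.07 TPM and 6.29 TPM in WT and 1.64 TPM and 2.93 TPM in KO (log2 fold change -0.92, limma adjusted p = 0.464), and both KO livers were below both WT livers. A second deposited table, of reads per gene scaled to CPM, gave another picture of the 8 factors. It listed *Hnf4a*, *Foxa3*, *Onecut1*, *Cebpa* and *Cebpb* at 0 reads in all 4 libraries. *Foxa1* had 6 and 2 reads in WT and 3 and 1 in KO, so that the groups overlapped and the KO mean was the lower one, unlike in TPM, *Prox1* had 0 and 2 reads in WT and 1 and 0 in KO, and *Foxa2* had 1 read in KO replicate 1 alone. A count of 0 allows up to 3 reads, which is between 20.0 CPM and 27.7 CPM in these libraries, for counting error only. Of 682 genes that reached 100 TPM in each of the 4 libraries, this table listed 428 at 0, so a zero in it is no measure of absence, and the TPM were used for the comparisons.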

How the data were processed

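Liver RNA of 2 WT and 2 *Usp21* KO mice was sequenced on an Illumina MiSeq, and groups were taken from the labels. The submitters' processing notes name Salmon, HTSeq, edgeR, Partek, deepTools and mm10. Their versions and the strand setting are not given in the sources used here. The authors deposited Salmon estimates as TPM for 35739 genes, and a second table of the same values as log2(TPM + 1). The authors also deposited HTSeq reads scaled by TMM as a CPM signal for 55335 genes, with a log2 table of it. The CPM signal fell on whole multiples of 1 read, with 100% of values whole within 0.02 reads, which gave 148164 and 110427 recovered reads in WT and 145306 and 102898 in KO. TPM keep no depth. A total of 4 tables was read and 0 sample columns were left unused.

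Genes whose mean reached 1 TPM (9581) were tested on log2(TPM + 1), pseudocount 1, with limma 3.58.1 in R 4.3.3 (lmFit, and eBayes with a variance trend, prior degrees of freedom 3.62), two-sided, with Benjamini-Hochberg adjustment. The study used ANOVA in Partek with settings that are not given, and limma with genotype as the only term is the nearest test. Alternatives were pseudocounts of 0.1 and 5, no filter, a mean of at least 5 TPM, upper quartile scaling, no moderation, limma on the CPM signal, edgeR 4.0.16 (quasi-likelihood) and DESeq2 1.42.0 on recovered reads, and each library left out. The scripts were tested on simulated data. No 2 libraries were identical, and no batch is given in the labels.

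The 8 factors and the 16 other gene lists, written from general knowledge, were chosen with earlier results of these data known. Genes named are the 8 factors, *Usp21*, in each list up to 2 genes with the highest and 2 with the lowest log2 fold change among those whose groups do not overlap, defining markers, overlapping genes, and the 2 nearest profiles of each factor whose groups do not overlap. Others were named after their values were seen. Coordinates are from GENCODE M21 (GRCm38), which held 35126 of the identifiers, and sequences from RefSeq (GRCm38.p6).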

Additional observations from a re-analysis of the deposited data

How the results depend on the processing

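Pseudocounts of 0.1 and 5, no filter and upper quartile scaling left 4 factors with non-overlapping groups, 2 with an unadjusted p under 0.05 and each factor in the same direction, with a median log2 fold change between 0.38 and 0.56. A mean of at least 5 TPM left 6 factors, 2 of them non-overlapping and 1 with an unadjusted p under 0.05, since *Onecut1* and *Foxa1* fell under it. Both of the non-overlapping factors were higher in KO, beside 32.8% of the 5822 genes tested at that threshold, of which 639 had such a p. Without moderation, 1 factor (*Hnf4a*) had an unadjusted p under 0.05. On the CPM table only 3 factors had a value, 0 were non-overlapping and 0 had an unadjusted p under 0.05. Their median was -0.67 in limma, -0.96 in edgeR and -1.04 in DESeq2. *Foxa1* was at -1.04, -1.06 and -1.04 and *Prox1* at -0.67, -0.96 and -1.04, all from at most 6 reads per library. *Foxa2* kept its direction, at 1.47, 2.27 and 1.4, from 1 read in KO replicate 1 alone. The cause of the reversal in *Foxa1*, *Prox1* and the median was not tested.

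With each library left out, the median ran from 0.16 to 0.90, and the number of non-overlapping factors from 5 to 7 as 1 library meets 2. Without KO replicate 3, 7 were higher, beside 57.6% of all tested genes. Without KO replicate 1, 4 were higher and 2 lower, beside 44.3% and 27.8% of all tested genes. Without WT replicate 2, 4 were higher and 1 lower, beside 49.1% and 21.1%. Without WT replicate 3, 6 were higher and 0 lower, beside 48.5% and 22.3%. The limma p-values given above for such fits assume that the lone library varies like the others. *Foxa2* ran from -0.55 (without KO replicate 1) to 1.13, *Foxa3* from -0.11 (without WT replicate 2, and -0.06 without KO replicate 1) to 1.13, *Cebpa* from -0.45 to 0.44 (without KO replicate 3, and 0.23 without WT replicate 2), and *Cebpb* from -0.97 (without WT replicate 2) to 0.61 (without WT replicate 3). Genes with an adjusted p under 0.05 numbered 8 in limma, 0 without moderation and 0 with any library left out, and 12 in edgeR and 1 in DESeq2 on recovered reads. No paired analysis was possible because the labels do not pair WT mice with KO mice. TPM keep no read numbers, so counting error could not be given.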

Other observations

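Genes that overlap a factor in the annotation were read in both tables. *Gm45091* is an antisense gene on the minus strand of chromosome 7 from 35118044 to 35119605, across the start of *Cebpa*. It had 109 and 42 recovered reads in WT and 55 and 46 in KO in the CPM table, where *Cebpa* was at 0 in all 4 libraries. In the TPM table, *Cebpa* had between 86.7 TPM and 161 TPM. The strand setting of the counting is not given in the sources used here, and without it reads of a gene and of its antisense partner cannot be told apart. *Prox1os*, antisense to *Prox1*, had 1 read in WT replicate 2, 0 in WT replicate 3 and 1 in each KO library. *Tmem189*, which overlaps *Cebpb* on the other strand, had 7.88 TPM and 6.42 TPM in WT and 8.05 TPM and 5.18 TPM in KO. *Hnf4aos*, *Gm25881*, *Gm20649* and *Gm28172*, which overlap *Hnf4a*, *Onecut1* or *Prox1*, were at 0 reads throughout.

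*Foxq1*, a forkhead gene whose values were picked out after they were seen, had 6.72 TPM and 8.50 TPM in WT, 10.5 TPM in KO replicate 1 and 0.680 TPM in KO replicate 3. The ratio of the KO livers, 15.5, was wider than that of any of the 8 factors, of which *Foxa2* had the widest at 3.49.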
